A study of Mus musculus with 6 samples.

Results

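Complement is a cascade of plasma proteins that tags particles and dying cells for uptake, and macrophages both make several of its components and carry receptors for its products. The genes described here are C1qa, C1qb and C1qc, C3, Cfb and Cfp, and the receptor genes C3ar1 and C5ar1. They were chosen by name from the platform annotation, as all probe sets that the annotation assigns to 1 gene symbol only. That gave 13 probe sets for 7 of the 8 named genes, out of 45037 probe sets and 18193 genes on the arrays, and C3 was not analysed here. The probe set with the highest mean over the 6 arrays represents each gene, and the other probe sets are given beside it.

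The arrays were Affymetrix Mouse Genome 430 2.0 arrays of macrophages grown from the bone marrow of c57BL/6 mice that lack TNF receptors 1 and 2 (TNFR1-/-R2-/-). All cells carried a retrovirus for a chimeric receptor, the outer domain of mouse TNFR1 fused to the transmembrane and inner domains of mouse RANK, and puromycin (2 ug/ml, 3 days) was used to select infected cells. In the mutant group (3 arrays) the IVVY motif of the RANK part held inactivating mutations, and in the wild-type group (3 arrays) the RANK part was unchanged. All cultures were given TNF (10 ng/ml) together with M-CSF (44 ng/ml), and RNA was taken after 24 hours. No group without TNF is part of the comparison, which asks which genes depend on the IVVY motif. Each array held the RNA of 6 dishes pooled, and there were 3 independent assays. The titles number the arrays 1 to 3 in each group. Same-numbered mutant and wild-type arrays are called 1 assay here, which is inferred from their correlation. The ages of the mice, and whether the assays used different mice, are not given in the sources used here.

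C1q is the recognition molecule of the classical pathway, built from A, B and C chains. Unlike most complement proteins, which come from the liver, it is made mainly by macrophages and dendritic cells. Properdin, encoded by Cfp, stabilises the alternative pathway's enzyme complex, and factor B, encoded by Cfb, supplies that complex's protease. The receptors encoded by C3ar1 and C5ar1 bind the small fragments released when the cascade runs, and draw and activate myeloid cells.

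In the RefSeq annotation of assembly GRCm38.p6, C1qb, C1qc and C1qa are neighbouring protein-coding genes on mouse chromosome 4. Promoters from RefSeq (GRCm38.p6), the 250 bases before the start of the gene, were held for 5 of the 7 genes: C1qb, C1qc, C3ar1, C5ar1 and Cfp. Those of C1qb and C1qc are shown because they are the neighbouring C1q genes for which promoters were held. Those of C3ar1 and C5ar1 are shown because the brightest probe set of each receptor read higher in the mutant of every assay. All lie on the minus strand and are written 5′ to 3′, with matches to the motifs named after them in capitals.
C1qb, chr4:136886201-136886450: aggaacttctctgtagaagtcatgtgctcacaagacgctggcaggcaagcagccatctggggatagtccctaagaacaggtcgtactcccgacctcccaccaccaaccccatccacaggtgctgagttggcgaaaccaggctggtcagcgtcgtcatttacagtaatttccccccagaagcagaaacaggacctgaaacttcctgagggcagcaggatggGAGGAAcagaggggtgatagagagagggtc
C1qc, chr4:136892915-136893164: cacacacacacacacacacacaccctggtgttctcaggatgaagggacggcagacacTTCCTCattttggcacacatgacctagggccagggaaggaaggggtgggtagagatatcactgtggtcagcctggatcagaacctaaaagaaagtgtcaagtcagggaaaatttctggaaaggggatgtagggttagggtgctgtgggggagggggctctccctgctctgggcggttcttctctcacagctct
C3ar1, chr6:122856158-122856407: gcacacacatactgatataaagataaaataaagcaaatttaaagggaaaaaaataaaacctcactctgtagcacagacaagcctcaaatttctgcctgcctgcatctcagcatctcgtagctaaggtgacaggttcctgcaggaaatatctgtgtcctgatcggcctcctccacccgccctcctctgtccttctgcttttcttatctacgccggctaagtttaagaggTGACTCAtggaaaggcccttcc
C5ar1, chr7:16259339-16259588: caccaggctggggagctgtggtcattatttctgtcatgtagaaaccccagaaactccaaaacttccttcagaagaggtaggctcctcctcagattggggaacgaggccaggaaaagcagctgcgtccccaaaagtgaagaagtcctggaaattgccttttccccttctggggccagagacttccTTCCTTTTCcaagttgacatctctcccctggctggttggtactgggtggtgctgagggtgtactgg

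The motifs were searched on both strands. GAGGAA, the core bound by the myeloid factor PU.1, was found 30 to 25 bases before the start of C1qb and, on the opposite strand as TTCCTC, 193 to 188 bases before that of C1qc. It was present in 23.3% of 32851 promoter windows of that length. TGANTCA, the AP-1 site, was found 22 to 16 bases before the start of C3ar1, as TGACTCA, and was present in 6.75% of windows. GAAANNGAA, a core of sites for interferon regulatory factors, was found on the opposite strand 66 to 58 bases before the start of C5ar1, as TTCCTTTTC, and was present in 7.13% of windows. No match overlapped another. GGGANTTTC for NF-kB (0.941% of windows), TTGCNNAA for C/EBP (9.56%) and TGCTGAC for MAF factors (3.81%) were not found in the 5 windows, and Cfp held no match to any of the 6 motifs.

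The labelled cell type was checked first. Of 10 macrophage markers 9 had a probe set, and all 9 lay above the filter on dim probe sets, 3 with a higher and 6 with a lower mean log2 value in the mutant. Csf1r, the M-CSF receptor, read 23347, 23089 and 28650 on mutant arrays 1, 2 and 3 and 29009, 23642 and 26181 on the wild-type arrays. Adgre1, which encodes the antigen F4/80, differed by 0.10 ± 0.16 (SE), Cd68 by -0.02 ± 0.10 and the lysozyme gene Lyz2 by -0.08 ± 0.09, as mutant minus wild type of log2(intensity + 16). Other macrophage markers varied more between arrays, most of all Fcgr1, which differed by 0.14 ± 0.87. Fcgr1 read 2673, 3174 and 6595 on the mutant arrays and 3998, 1062 and 9855 on the wild-type arrays. Markers of T cells (3 probe sets), mast cells (4) and B cells (2) read under 16 on every array. The 8 osteoclast markers all read lower in the mutant in every assay. Their summed intensity lay between 1119.9 and 1884 on mutant arrays and between 8579 and 27412 on wild-type arrays. Not all were far apart: Atp6v0d2 read 437 on mutant array 2 and 447 on wild-type array 2. Calcr and Ocstamp read under 16 on all arrays but wild-type array 3. Stromal markers separated assay 3 in both groups. Their sum over 8 genes was 59.2, 156 and 4341 on the mutant arrays of assays 1, 2 and 3 and 59.5, 79.9 and 3204 on the wild-type arrays, and 1 of the 8 read under 16 on every array. What part these other cells or cell states had in the values below was not tested. In such pooled RNA, fewer cells of a type and less RNA per cell cannot be told apart.

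None of the 7 complement genes passed the comparison of mutant with wild type, in a fit where no probe set did. By limma without a block, 0 of the 7 were called, against 0 of 22497 probe sets (0%), and the smallest adjusted p was 0.99998. At an unadjusted p under 0.05 limma counted 0 of the 7, against 0.88% of all probe sets. With the assay as a fixed block limma again called 0 of the 7, against 0% of all, with a smallest adjusted p of 0.859 among the 7. In that fit 3 of the 7, C3ar1, C5ar1 and Cfb, had an unadjusted p under 0.05, against 5.29% of all probe sets. Over the 13 probe sets of the 7 genes the count was also 3. The other probe sets of C3ar1 had an unadjusted p of 0.0907 and 0.349 in this limma fit, and that of C5ar1 0.499. With the assay as a random block, where limma estimated 1 correlation of 0.695 within assays for all probe sets, 0 of the 7 were called, against 0.00445% of all. In that fit 1 of the 7, C3ar1, had an unadjusted p under 0.05, against 5.27% of all probe sets. All 13 probe sets of the 7 genes passed the filter, which kept a probe set that lay above its array's median on at least 3 of the 6 arrays. The mean log2 value was higher in the mutant for 5 genes and lower for 2, and it was higher for 51.7% of all probe sets. The median log2 difference was 0.02 over the 7 genes and 0.0039 over all probe sets. The median of its absolute size was 0.27 over the 7 genes, 0.17 over their 13 probe sets and 0.0978 over all probe sets. These sizes are not like for like. The 7 genes were brighter than at least 88.8% of probe sets, and differences of dim probe sets are understated.

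**Figure D1:**
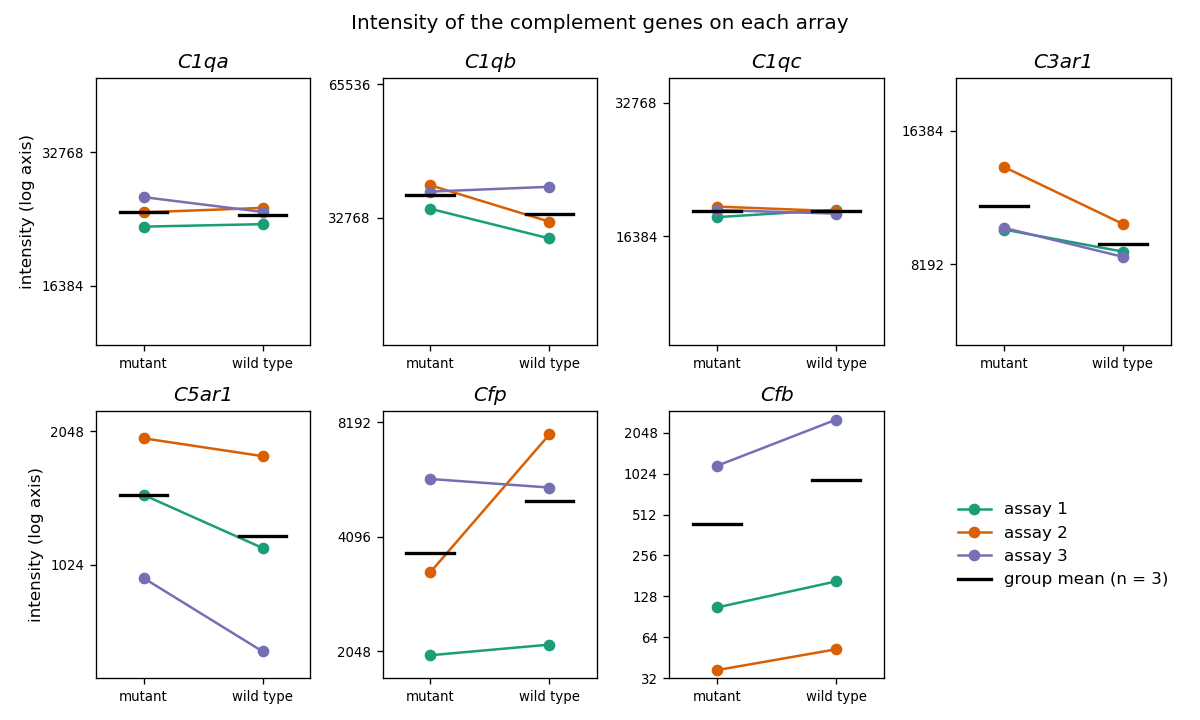
Intensity of the brightest probe set of each of the 7 complement genes (log axis, scaled for each panel) on the mutant arrays (left) and wild-type arrays (right), with lines joining arrays of the same assay and black bars for the mean of 3 arrays. C1qa and C1qc are nearly level, and C1qb slopes down towards wild type in assays 1 and 2. Both receptors slope down towards wild type in every assay, and Cfb is spread by assay, from 36.6 to 2568.

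The C1q genes were bright and steady. C1qa read 22273, 23985 and 25964 on mutant arrays 1, 2 and 3 and 22561, 24550.2 and 24038 on the wild-type arrays. The groups overlapped throughout, with a mutant mean of 24074 ± 1847 and a wild-type mean of 23716 ± 1033 (SD, n = 3 each), and a log2 difference of 0.02 ± 0.10 (SE). C1qc read 18100.4, 19119.5 and 18779 on the mutant arrays and 18812, 18672 and 18436 on the wild-type arrays. This was the narrowest spread among the 13 probe sets, with a coefficient of variation of 1.87% over the 6 arrays and a log2 span of 0.08 from lowest to highest array. The median span over all probe sets was 0.718. The log2 difference of C1qc was 0.00 ± 0.08 (SE). With the assay as a block, the 95% interval of the difference ran from -0.20 to 0.24 for C1qa and from -0.21 to 0.21 for C1qc on the log2 scale. The sign of these near-zero differences turned for C1qa without mutant array 3 (-0.04) or wild-type array 1 (-0.02), and for C1qc without array 2 (-0.02) or 3 (-0.00) of the mutant or array 3 (-0.01) of the wild type. The mean intensities of the C1q probe sets lay above those of at least 99.6% of probe sets. How far the scanner's range or the normalization compressed differences at that brightness was not tested.

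C1qb, which encodes the B chain, read somewhat higher in the mutant in assays 1 and 2. Its brightest probe set, 1437726_x_at, read 34353, 38812 and 37561 on mutant arrays 1, 2 and 3 and 29448, 32130.1 and 38508 on the wild-type arrays. In assay 3 the order was turned by a small margin, and the groups overlapped. The log2 difference was 0.15 ± 0.13 (SE; limma, adjusted p = 0.99998), and the differences within assays 1, 2 and 3 were 0.22, 0.27 and -0.04. Without wild-type array 1 the log2 difference was 0.07, and without wild-type array 3 it was 0.26. The probe set 1417063_at differed by 0.07 ± 0.14, with 0.16, 0.04 and 0.02 within the assays. The probe set 1434366_x_at read 26213, 28388 and 26396 on the mutant arrays and 21904, 24681 and 25837 on the wild-type arrays. It was the 1 of the 13 probe sets whose groups did not overlap, and 1.47% of all probe sets were higher in the mutant without overlap. Its log2 difference was 0.16 ± 0.10 (SE; limma, adjusted p = 0.99998). The suffix x in a probe set's name marks probes that can also bind other transcripts.

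Both receptor genes read higher in the mutant in every assay on their brightest probe set. They were the 2 of the 7 genes that did so, and 13.8% of all probe sets were higher in every pair of same-numbered arrays. A count of 2 among 7 genes is too small to set against that share. C3ar1, the receptor for the fragment C3a, read 9802, 13567 and 9889.7 on mutant arrays 1, 2 and 3 and 8738, 10089.9 and 8506 on the wild-type arrays. Wild-type array 2 lay above mutant arrays 1 and 3, so the groups overlapped. The mutant mean was 11086 ± 2149 and the wild-type mean 9111 ± 856 (SD, n = 3 each), a 1.21-fold higher level on the log2(intensity + 16) scale. The log2 difference was 0.27 ± 0.17 (SE; limma, adjusted p = 0.99998), and 0.17, 0.43 and 0.22 within assays 1, 2 and 3. With the assay as a fixed block its 95% interval ran from 0.01 to 0.53 (limma, unadjusted p = 0.0435, adjusted p = 0.859).

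The other C3ar1 probe sets did not all share the pattern. The probe set 1442082_at read 8497, 12638 and 10941 on the mutant arrays and 7600.2, 7695 and 9922 on the wild-type arrays. It was higher in the mutant in every assay, by 0.16, 0.71 and 0.14 on the log2 scale. The probe set 1419482_at read 6757, 7162 and 6956 on the mutant arrays and 7097, 4767 and 6921 on the wild-type arrays. Its differences within the assays were -0.07, 0.59 and 0.01, so only assay 2 stood apart. Without mutant array 2 the log2 difference of the brightest C3ar1 probe set was 0.12.

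C5ar1, the receptor for the fragment C5a, varied more between assays than between groups. Mutant arrays 1, 2 and 3 read 1471, 1974 and 955, against 1116, 1799 and 652 on the wild-type arrays. Assay 2 was highest and assay 3 lowest in both groups. Differences between assays made up 86.9% of its sum of squares on the log2 scale and the difference between groups 10.7%, where the medians over all probe sets were 76% and 4.82%. The log2 difference was 0.36 ± 0.45 (SE; limma, adjusted p = 0.99998), and 0.39, 0.13 and 0.54 within assays 1, 2 and 3. With the assay as a fixed block its 95% interval ran from 0.04 to 0.67 (limma, unadjusted p = 0.0337, adjusted p = 0.859). With the random block its SE was 0.20 (limma, unadjusted p = 0.133). The probe set 1422190_at disagreed in assay 2, with 0.35, -0.49 and 0.73 within the assays. Leaving out single arrays unbalances the assays: the log2 difference of C5ar1 was -0.01 without wild-type array 3, 0.11 without mutant array 2, 0.63 without mutant array 3 and 0.71 without wild-type array 2.

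**Figure D2:**
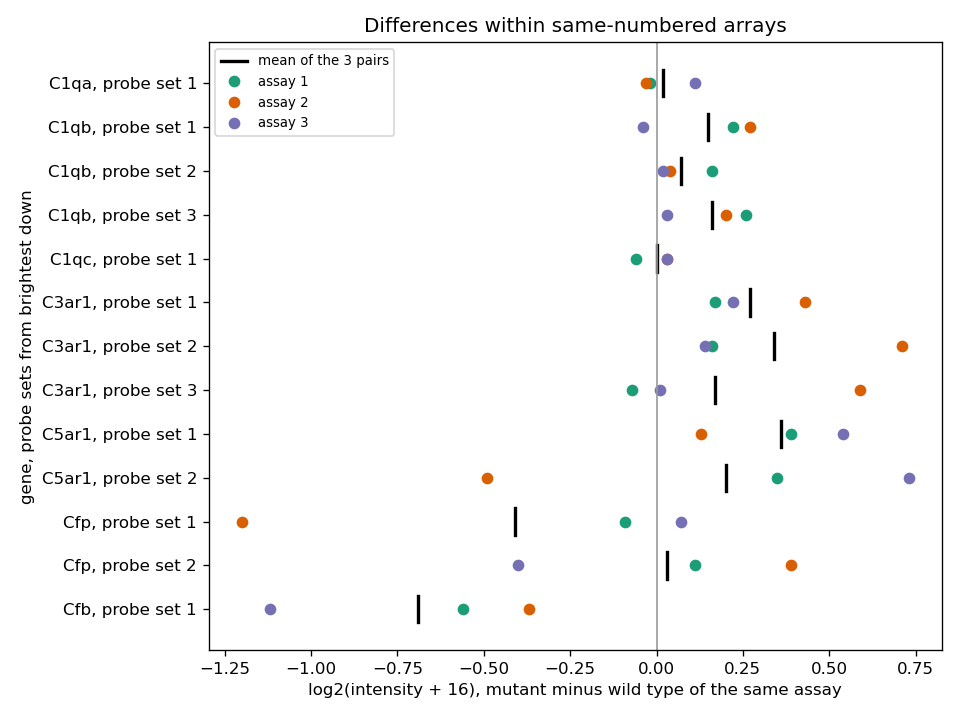
Difference between mutant and wild-type arrays of the same assay, in log2(intensity + 16), for each of the 13 probe sets of the 7 genes (points, 1 per assay; black bars, the mean of the 3 pairs). Points of C1qa and C1qc sit near the zero line, between -0.06 and 0.11, all points of the brightest C3ar1 and C5ar1 probe sets lie right of it, all points of Cfb lie left of it, and the Cfp mean of -0.41 is drawn by assay 2.

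The alternative pathway genes Cfp and Cfb had lower means in the mutant. Cfp, which encodes properdin, read 1996, 3298 and 5804 on mutant arrays 1, 2 and 3 and 2129, 7599 and 5511 on the wild-type arrays. Wild-type array 2 was the highest of the 6, and assays 1 and 3 were close within their pairs. The mutant mean was 3699 ± 1936 and the wild-type mean 5079.6 ± 2760.4 (SD, n = 3 each). The log2 difference was -0.41 ± 0.61 (SE; limma, adjusted p = 0.99998), and -0.09, -1.20 and 0.07 within assays 1, 2 and 3. It was -0.01 without both arrays of assay 2, -0.02 without wild-type array 2, -0.03 without mutant array 1, -0.80 without mutant array 3, -0.94 without wild-type array 1 and -0.26 without wild-type array 3. The dimmer Cfp probe set, 1447537_at, read 166, 188 and 112 on the mutant arrays and 153, 139 and 154 on the wild-type arrays, and its differences within the assays were 0.11, 0.39 and -0.40. The probe sets thus pointed opposite ways in assays 1, 2 and 3.

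Cfb, which encodes factor B, was the 1 of the 7 genes that read lower in the mutant in every assay, as did 11.7% of all probe sets. Mutant arrays 1, 2 and 3 read 106, 36.6 and 1173, against 165, 52.1 and 2568 on the wild-type arrays. Both arrays of assay 3 were far above the rest, and within each assay the mutant array was the lower one. The log2 difference was -0.69 ± 1.78 (SE; limma, adjusted p = 0.99998), or 1.61-fold lower in the mutant, and -0.56, -0.37 and -1.12 within assays 1, 2 and 3. Assays made up 96.7% of the sum of squares of Cfb and the groups 2.68%. With the assay as a fixed block the 95% interval of the difference ran from -1.17 to -0.20 (limma, unadjusted p = 0.0176, adjusted p = 0.859). With the random block its SE was 0.75, against 0.17 with the fixed block (limma, unadjusted p = 0.4). Because the assays lay so far apart, leaving out single arrays moved the difference of group means widely. It was 0.27 without mutant array 2 and 0.83 without wild-type array 3, with the sign turned, and -1.98 without mutant array 3, -1.79 without wild-type array 2, -1.09 without wild-type array 1 and -0.34 without mutant array 1. Without both arrays of assay 1, 2 or 3 it was -0.75, -0.84 and -0.47.

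The sum of the stromal markers was also highest in assay 3. In assays 2 and 3 this sum was higher on the mutant array, and Cfb read lower there. In assay 3 the sum was 4341 on the mutant and 3204 on the wild-type array, where Cfb read 1173 and 2568. Sparc, which encodes a secreted matrix protein, read 1325 on mutant array 3 and 1061 on wild-type array 3, and Col3a1, a fibrillar collagen, 524 and 380. All 4 stromal markers above the filter had a higher mean log2 value in the mutant. Markers below the filter were mixed on mutant and wild-type array 3: Dcn read 4.61 and 62.9, Cxcl12 9.94 and 17, and Pdgfrb 52.2 and 40.6. The osteoclast markers were lower in the mutant of every assay, like Cfb. Acp5, the tartrate-resistant acid phosphatase, read 505, 220 and 818 on the mutant arrays and 4462, 3745 and 9497 on the wild-type arrays. Ctsk, the collagen-degrading cathepsin K, differed by -3.82 ± 0.81 (SE) on the log2 scale and Mmp9, a matrix protease, by -4.88 ± 0.89. The differences of the 7 complement genes spanned -0.69 to 0.36 on that scale. The part of either cell type in the Cfb values was not tested.

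For the 3 genes whose log2 values spanned at least 1 over the 6 arrays, Cfb (5.62), Cfp (1.92) and C5ar1 (1.58), the genes with the most similar profile were found among 10372 genes. Likeness was the root mean square difference between log2 profiles, each centred on its own mean over the 6 arrays. Nearest to Cfb were Ifi209, an interferon-activated gene (0.46), Ms4a4c, a membrane protein gene (0.53), and Ifit2, an interferon-induced antiviral gene (0.53). Ifit2 read 994, 943 and 12112 on the mutant arrays and 3520, 1125 and 21189 on the wild-type arrays, also highest in assay 3 of both groups. Within assays 1, 2 and 3 Ifi209 differed by -1.72, 0.38 and -0.69 and Ifit2 by -1.81, -0.25 and -0.81, so assay 1 separated the groups more for these genes than for Cfb. Nearest to Cfp were Eva1b (0.12), Papss2, which makes the cell's sulphate donor (0.16), and Herpud1, a protein of the endoplasmic reticulum's degradation pathway (0.19). Eva1b read 184, 260.3 and 573 on the mutant arrays and 203, 681 and 580 on the wild-type arrays, with wild-type array 2 highest as for Cfp. Nearest to C5ar1 were Gcn1, an activator of a stress kinase (0.08), Eml3, a microtubule-associated protein (0.12), and Trib1, a pseudokinase (0.13). Gcn1 read 157, 182 and 88.8 on the mutant arrays and 106, 183 and 62.1 on the wild-type arrays. The 6 arrays share 3 assays, so they are not 6 independent points.

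**Figure D3:**
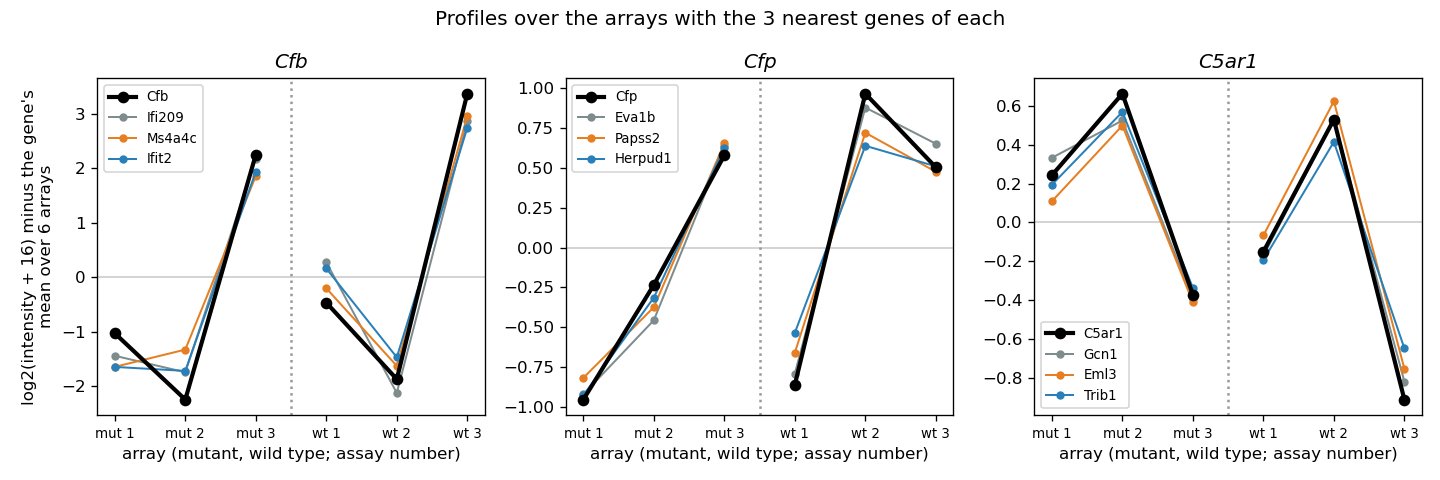
Profiles of Cfb, Cfp and C5ar1 (black) and of the 3 nearest genes of each (colours) over the 6 arrays, as log2(intensity + 16) minus the gene's own mean, with mutant arrays left of the dotted line and wild-type arrays right of it. Cfb and its neighbours peak on array 3 of both groups, Cfp and its neighbours are high on wild-type array 2, and C5ar1 and its neighbours are lowest on array 3 of both groups.

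Of 47 other complement genes listed, 35 had a probe set assigned to them alone, and 15 of these lay above the filter. By limma 0 of the 15 were called without a block or with the assay as a fixed block, against 0% of all probe sets in each fit. An unadjusted p under 0.05 was found for 0 of the 15 in either fit. Of all probe sets, 0.88% had one without a block and 5.29% with the fixed block. The mean log2 value was higher in the mutant for 6 and lower for 9, and the median log2 difference was -0.05, against 0.0039 over all probe sets. None of the 6 terminal component genes with a probe set passed the filter. Among recognition and protease genes, Fcna, which encodes the lectin pathway's ficolin A, read 1683, 1691 and 3771 on mutant arrays 1, 2 and 3 and 2013, 2083 and 3171 on the wild-type arrays. The groups overlapped, and assay 3 was highest in both. C1ra, a protease that works with C1q, was dim and differed by -0.18 ± 0.18 (SE).

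Among regulators, Cr1l, the mouse membrane protein Crry that limits complement on the cell's own surface, read 1071, 1189 and 1145 on the mutant arrays and 1207, 1339 and 1191 on the wild-type arrays. It was the 1 of the 15 without overlap, lower in the mutant, as were 1.59% of all probe sets, with a log2 difference of -0.13 ± 0.10 (SE; limma, adjusted p = 0.99998). Clu, which encodes clusterin, read 10.7, 10.9 and 10.3 on the mutant arrays and 11.9, 10.6 and 85 on the wild-type arrays, so its difference of -0.66 ± 0.55 came from wild-type array 3. Cfhr2, a factor H related gene, read 19.4, 14.8 and 13.5 on the mutant arrays and 15.9, 10.4 and 13.4 on the wild-type arrays, near the floor, and differed by 0.13 ± 0.12.

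Among receptors and C1q-binding proteins, Itgb2, the shared beta chain of the integrin complement receptors, read 9867, 8756 and 6725 on the mutant arrays and 10802, 10610.4 and 7416 on the wild-type arrays. It was lower in the mutant of every assay, by 0.18 ± 0.22 (SE) on the log2 scale, and the groups overlapped. Lrp1, an endocytic receptor that works with calreticulin in the uptake of dying cells, read 5833, 5896 and 1259 on the mutant arrays and 5163, 2952 and 1163 on the wild-type arrays. Assay 3 was the lowest in both groups, and the largest difference lay in assay 2, at 0.99 on the log2 scale, against 0.18 and 0.11 in assays 1 and 3. Cd93, a membrane glycoprotein of myeloid and endothelial cells, also stood apart in assay 2, where it differed by 1.02, against -0.15 and -0.03 in assays 1 and 3. Calr, which encodes calreticulin, differed by -0.01 ± 0.32 and C1qbp, which encodes a C1q-binding protein of mitochondria, by -0.11 ± 0.27.

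**Figure D4:**
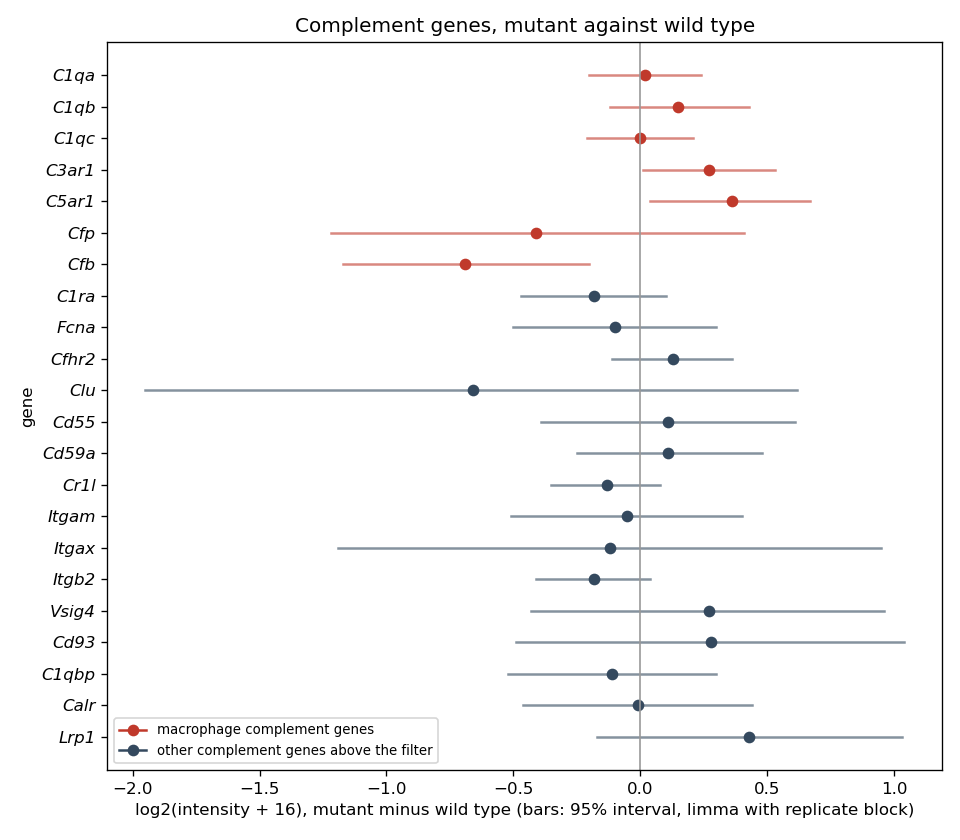
Log2 difference of mutant minus wild type for the 7 macrophage complement genes (red) and the 15 other complement genes above the filter (dark blue), with bars for the 95% interval from limma with the assay as a fixed block. The bars of C3ar1, C5ar1 and Cfb lie to 1 side of zero before adjustment for 22497 probe sets, and all other bars cross it.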

How the data were processed

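Deposited values were intensities on a linear scale, 1 per probe set and array. Per the submitters' processing notes they were made with GCOS and GCRMA. Versions and how these were combined are not given in the sources used here. Array medians were 8.86 to 9.38 and the 75th percentiles 160 to 164, so no further normalization was applied. GCRMA equalises the distributions of arrays and pulls dim signals to a floor, so fold changes of dim genes are understated. Groups and replicate numbers came from the sample titles.

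From the 45101 probe sets, 64 controls were left out. Of the rest, 34945 had 1 gene symbol, 932 several and 9160 none, and those with several or none were tested but not named. Gene names were matched to RefSeq of GRCm38.p6 for the 7 genes. Intensities were transformed to log2(value + 16). Probe sets above the median (percentile 50) of their own array on at least 3 of 6 arrays were kept, which left 22497. Mutant minus wild type was tested without a block by limma (version 3.58.1, R 4.3.3; lmFit, then eBayes; two-sided), and p-values were Benjamini-Hochberg adjusted over all kept probe sets, with 0.05 as the threshold. Standard errors are from this fit. The fits without a block and with the fixed block were also run on simulated data, with a pass criterion set for the fixed-block fit only. Intervals are 95% intervals from the fit with the assay as a fixed block.

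Replicate numbers are shared between the groups, and per the labels each RNA preparation was an independent assay. Deviations from the group means correlated at 0.797, 0.671 and 0.845 between same-numbered arrays and at -0.618 to -0.0138 between others. Same-numbered arrays were therefore treated as pairs in the differences within assays and in the block fits. The fit without a block ignores this pairing, so its standard errors and p-values include the differences between assays. By limma it gave an unadjusted p under 0.05 for 0.88% of all probe sets, against 5.29% with the fixed block. As nothing says that the assays came from separate animals, p-values measure only the spread among these arrays, and their number limits the precision. Without a block that is the spread between arrays of the same group. With the fixed block it is the spread of the differences within assays.

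The 8 genes, the 47 other complement genes and the marker lists were chosen with earlier results of these data known. Named were the 7 measured genes. Of the other complement genes, those with the 6 smallest p or the 6 highest means were named. For genes with a log2 span of at least 1, the 3 nearest profiles were named, together with the markers Acp5, Ctsk, Mmp9, Csf1r, Adgre1, Cd68, Lyz2, Sparc and Col3a1. The markers Dcn, Cxcl12, Pdgfrb, S100a8, Ccr7, Kdr, Atp6v0d2, Calcr, Ocstamp and Fcgr1 were named in addition, to show where members of a list differed. Alternatives were pseudocounts of 1 and 64, no filter and a filter at percentile 70, fixed and random replicate blocks, quantile normalization, a shift to equal medians, a variance trend, the mean of a gene's probe sets, and leaving out each array or assay.

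Other marker lists were mostly dim: of 7 neutrophil probe sets 6, of 4 dendritic cell probe sets 3, of 3 endothelial probe sets 2 and the 1 erythroid probe set read under 16 on every array. The exceptions were S100a8, Ccr7 and Kdr. S100a8 read 649, 431 and 128 on mutant arrays 1, 2 and 3 and 604, 677 and 212 on the wild-type arrays. Ccr7 read 103 on wild-type array 3 only, and Kdr read 39.5 to 171.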

Additional observations from a re-analysis of the deposited data

How the results depend on the processing

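The count of 0 complement genes called by limma, among the 7 and among the other complement genes tested, held under every alternative run. With the random replicate block, limma called 1 of all 22497 probe sets, which is none of these genes, and every other alternative called 0. In the fit without a block not even Mmp9, at -4.88 ± 0.89 (SE) on the log2 scale, was called. The count of 0 therefore cannot show that the complement genes were unchanged. The fit with the assay as a fixed replicate block changed no call, and the smallest adjusted p among the 7 genes was 0.859. Over the 7 genes and 19 alternatives, 122 of 133 log2 differences kept the direction of the reported value, and the 11 that turned all left out arrays. The filters, the blocks and the variance trend cannot change a difference in this balanced design, so their agreement was fixed in advance. Of the 63 differences with arrays left out, 52 kept the direction. When single arrays were left out the difference ranged from -0.04 to 0.07 for C1qa, -0.02 to 0.02 for C1qc, 0.07 to 0.26 for C1qb, 0.12 to 0.35 for C3ar1, -0.01 to 0.71 for C5ar1, -0.94 to -0.02 for Cfp and -1.98 to 0.83 for Cfb. It turned to -0.03 for C1qa and -0.01 for C1qc without both arrays of assay 3, and to -0.01 for C1qc without both arrays of assay 2. Leaving out 1 array leaves the assays unequal between the groups. With the mean of its probe sets Cfp differed by -0.19. With the random replicate block 1 of the 7 genes, C3ar1, had an unadjusted p under 0.05 by limma (0.0278), and the p of C5ar1 was 0.133 and that of Cfb 0.4. For dim genes such as Clu and Cfhr2, signal near the floor limits the size of a difference.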
